A study of Homo sapiens with 4 samples.

Results

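REST, the repressor of neuronal genes, was examined together with its corepressor RCOR1 and with 8 neuronal genes in IMR90, human fetal lung fibroblasts depleted of HMGB1. The 10 genes (REST, RCOR1, UNC13A, MAPK8IP2, SCG2, TMEM198, VGF, SYN1, STMN2 and STMN3) were found by symbol among the 63677 genes of the count files. UNC13A, MAPK8IP2, SCG2 and TMEM198 were selected on this same comparison, as large increases, so their changes are described without a test. The other 6 were chosen for the question of whether the repressor and its partner were lower and whether further neuronal targets were higher upon knockdown.

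The comparison was between control and knockdown, with 2 libraries each. Control cells received a non-targeting siRNA and knockdown cells received siRNA against HMGB1, both with RNAiMAX, and both were collected after 72 h. Replicate 1 of either group was grown from isolate I90-10, and replicate 2 from isolate I90-79, both obtained at passage 5 and grown on, and the passage at transfection is not given in the sources used here. The methods mention 2 different siRNAs for IMR90 and do not say which library received which, so a change that comes with HMGB1 loss and one that comes with an siRNA cannot be told apart.

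REST is a zinc finger protein that binds a long DNA element, RE1, in and near genes used by neurons. It recruits RCOR1 (CoREST), which brings the histone demethylase KDM1A and the deacetylases HDAC1 and HDAC2, and a second complex built on SIN3A. Fibroblasts are cells in which REST is present and its neuronal targets are held at low levels. Neurons lose REST as they differentiate, and then express the targets, many of which serve the release of transmitters and peptides.

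The libraries held between 29861687 and 35317010 reads counted on genes. HMGB1 itself, on chromosome 13 of hg19 from 31032884 to 31191734, had 181 and 237 CPM (reads scaled by library size) in the control and 16.0 and 18.9 CPM in the knockdown libraries, a 12.0-fold difference that is in the direction of the labels. Differences were tested with edgeR's quasi-likelihood test over 15398 genes, and calls required an adjusted p under 0.01 together with a log2-fold change beyond 0.6 in size. Of all genes tested, 0.0649% were called higher and 0.136% lower. Because the same isolates occur in both groups, a second fit took the isolate as replicate block. This fit is given for REST, RCOR1, VGF, STMN3 and SYN1, for the counts of calls, and for other genes where stated. With it, 6.68% of genes were called higher and 7.84% lower.

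RE1 is written here as TTCAGCACC, then 2 bases of any kind, then GGACAGCG followed by CC, which makes 21 bases of which 19 are fixed. Both strands of hg19 were searched within 5 kb of each gene's start, and bases that match RE1 are in capitals. The matches below are those of members, some close and some less close, and of listed genes with a close match. These listed genes were higher, lower or near silent upon knockdown. Positions are on hg19, with the strand on which the sequence reads as printed, and distances run from the gene's start to the middle of the match.
UNC13A: TTCAGCACCgtGGACAGCGCC
VGF: TTCAGCACgctGGACAGCGCC
SYN1: TTCAGCACCgcGGACAGtGCC
STMN3: gcCAGCACCatGGcCAGCaCC
TMEM198: cTCAcCACCctGGcCAcCGCC
CHRNB2: TTCAGCACCacGGACAGCGCC
SYP: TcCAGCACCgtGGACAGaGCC
MAPK8IP1: TTCAGCACCgcGGAgAGCGCC
SNAP25: TTCAGCACCggGGACAGCGgt
CHGA: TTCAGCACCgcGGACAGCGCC

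The match of VGF (chr7:100808840-100808860, plus strand) has 1 mismatch and lies in an untranslated exon, 24 bases into the gene. That of SYN1 (chrX:47479469-47479489, minus strand) also has 1 mismatch and lies outside the gene, at −227. UNC13A had no match better than 5 mismatches within 5 kb of its start, but a search out to 50 kb, added after the data had been seen, found a match with 0 mismatches in an intron (chr19:17792562-17792582, minus strand), 6829 bases into the gene. A match with at most 2 mismatches within 50 kb was found for 2.93% of all genes tested. Of the 10 members 4 had one, and MAPK8IP2, SCG2, TMEM198 and STMN3 did not. The best match of STMN3 (chr20:62284687-62284707, minus strand) has 4 mismatches and lies in a coding exon, 83 bases into the gene, and that of TMEM198 (chr2:220412572-220412592, plus strand) also has 4 and lies in a coding exon at 4197 bases. STMN2 has a match with 2 mismatches at −1253, which is not printed. For MAPK8IP2 and SCG2, 2 of the members with the largest increases, the closest sequences within 5 kb had 6 and 7 mismatches, and REST and RCOR1 had 6 each. A match of these letters is a description of the sequence and not evidence of binding.

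For comparison, CHRNB2 (chr1:154540430-154540450, plus strand) and CHGA (chr14:93389868-93389888, plus strand) each have a match with 0 mismatches, in an untranslated exon 183 bases and in an intron 453 bases into the gene. SYP (chrX:49056581-49056601, minus strand) has 2 mismatches, in an intron at 127 bases, and SNAP25 (chr20:10200320-10200340, plus strand) has 2, in an intron at 852 bases. MAPK8IP1 (chr11:45907084-45907104, plus strand) has 1 mismatch and lies outside the gene, at −108.

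REST was lower in both knockdown libraries. The gene (ENSG00000084093), on chromosome 4 from 57774075 to 57802010, had 60.2 and 54.7 CPM in control and 24.9 and 25.7 CPM in knockdown libraries, from 1769, 2014, 718 and 804 reads. The groups did not overlap, and the log2 ratio of knockdown to control was −1.28 within I90-10 and −1.09 within I90-79. The mean went from 57.4 ± 3.94 to 25.3 ± 0.625 CPM (SD, n = 2 each). The log2-fold change was −1.18 (standard error 0.12). In edgeR's test without the block this missed the threshold, with an adjusted p of 0.0130, while the fit with the replicate block called REST lower (adjusted p = 0.000187). Over all alternatives the log2-fold change lay between −1.25 and −1.11, and the adjusted p between 3.77e-11 (DESeq2 with the replicate block) and 0.0721.

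The annotated 3′ untranslated region of REST, of 6016 bases, holds 5 copies of the 6-letter word GCAGTT. The word was taken from earlier work on these data, so the medians that follow are not independent of its choice. Genes with this word had a median log2-fold change of −0.11, against 0.07 for those without it, among 12814 tested genes with such a region. At least 5 copies were found in 1.30% of these genes, and the 167 genes in that class had a median of −0.28. Their regions are not matched for length, and the part of the word in the change of REST was not tested. RCOR1, VGF and STMN3 hold 1 copy each, STMN2 holds 2, and UNC13A, MAPK8IP2, SCG2, TMEM198 and SYN1 hold 0.

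RCOR1, the scaffold between REST and KDM1A, did not pass the test. It had 52.5 and 46.2 CPM in control and 45.7 and 43.1 CPM in knockdown libraries. The groups lay side by side without overlap, and the log2-fold change of −0.15 (standard error 0.12) was not called with edgeR (adjusted p = 0.469, and 0.290 with the replicate block).

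The other enzymes and scaffolds of the REST complexes were in the main not called. The log2-fold change of KDM1A was −0.28 (standard error 0.13) and that of RCOR3, a relative of RCOR1, was −0.40 (standard error 0.16). HDAC1 and HDAC2 had 0.01 and 0.21, and SIN3A had −0.17. Of 35 listed genes of this machinery 34 were tested, with a median of −0.14 against −0.01 for all genes tested, and without the block 0 were called in either direction, while 8 reached 0.05 before adjustment and 6 were called by DESeq2. Under the replicate block 4 were called lower and 2 higher, beside backgrounds of 7.84% and 6.68%.

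**Figure D1:**
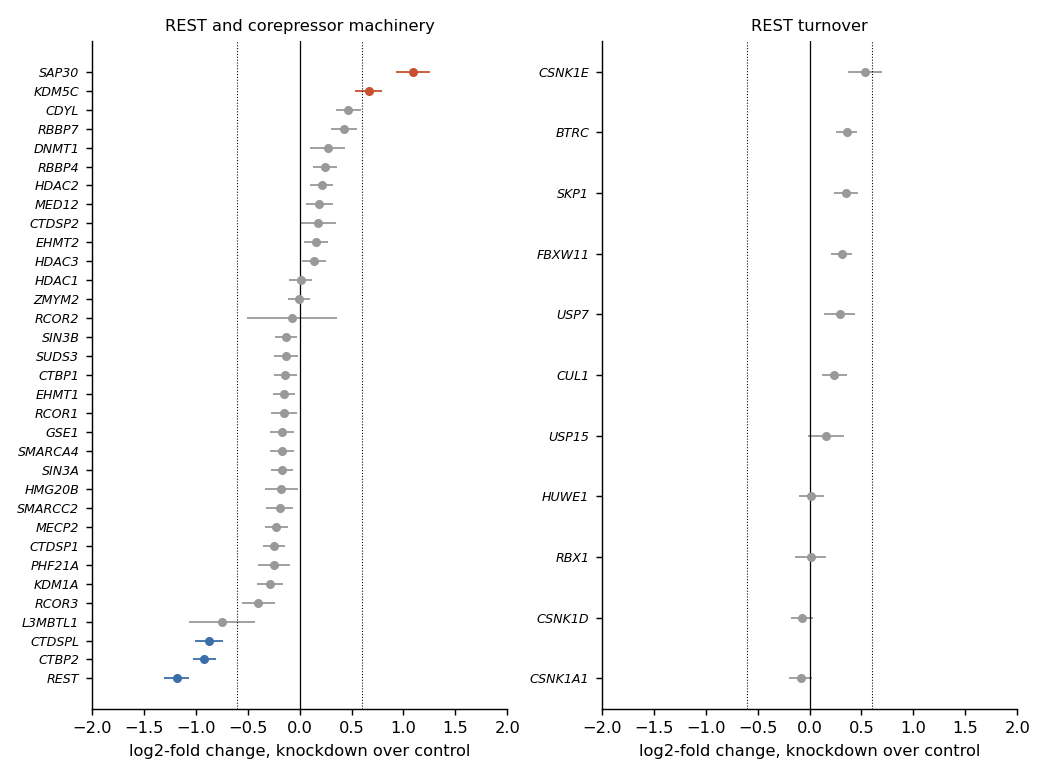
Log2-fold change of HMGB1 knockdown over control (x axis, points, with the standard error as bars) for 33 genes of the REST and corepressor machinery (left) and 11 genes of REST turnover (right). Colour marks genes called lower (blue) or higher (red) in the fit with the replicate block, dotted lines mark ±0.6, and REST is the lowest gene at −1.18.

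The machinery genes called lower included REST, CTBP2 and CTDSPL. CTBP2, a corepressor of the CtBP family, had 104 and 93.9 CPM in control and 52.6 and 51.9 CPM in knockdown libraries. Its change of −0.92 (standard error 0.11) had an adjusted p of 0.0174 in edgeR and 0.000395 with the block. The small phosphatase CTDSPL, one of those that act on REST and on RNA polymerase, changed by −0.87 (standard error 0.13). Among those called higher, SAP30, a subunit of the SIN3 complex, went from 7.12 and 7.03 to 14.4 and 15.7 CPM, and KDM5C, a histone demethylase, had a change of 0.67. CTDSPL, SAP30 and KDM5C were named after their values were seen. Of 11 genes of REST turnover, the ubiquitin ligase and kinases that mark REST for degradation and the enzymes that stabilise it, 0 were called by edgeR with or without the block or by DESeq2, and 4 reached 0.05 before adjustment. BTRC, the ligase subunit that recognises REST, had a value of 0.36 on the log2 scale (standard error 0.10) with an adjusted p of 0.0980 in edgeR.

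UNC13A, which primes synaptic vesicles for release, was close to silent in control cells. The gene (chromosome 19, 17712137 to 17799401) had 5 reads in each control library and 329 and 392 reads in the knockdown libraries. This is 0.170 and 0.136 against 11.4 and 12.6 CPM, with 78.3-fold between the means and a log2 difference of 6.27 (standard error 0.29).

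MAPK8IP2, a scaffold of JNK signalling found in brain, behaved in the same way. It lies on chromosome 22 from 51039114 to 51052409 and had 10 and 12 reads in control and 444 and 419 reads in knockdown libraries. The means, 0.333 ± 0.0105 and 14.4 ± 1.38 CPM (SD, n = 2 each), lay 43.2-fold apart, and the log2-fold change was 5.42 (standard error 0.25).

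SCG2, a granin of secretory granules, is the member with the highest level after knockdown. It lies on chromosome 2 from 224461658 to 224467221. It had 19.3 and 26.0 CPM in control and 686 and 592 CPM in knockdown libraries, from 568, 959, 19822 and 18486 reads. The log2-fold change was 4.82 (standard error 0.22), with 5.15 within I90-10 and 4.51 within I90-79.

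TMEM198, a membrane protein linked to WNT signalling, had 1.74 and 1.98 CPM in control and 22.9 and 20.2 CPM in knockdown libraries (chromosome 2, 220408385 to 220415317). Its log2-fold change was 3.53 (standard error 0.19). Of its exonic bases 10.8% overlap other genes, among them CHPF on the other strand, and without a stated strand setting reads there cannot be assigned to one of the 2 genes. CHPF had 196 and 159 CPM in control and 261 and 222 CPM in knockdown libraries, a change of 0.45 (standard error 0.16, adjusted p = 0.149 with edgeR).

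In all 4 genes every knockdown library lay above every control library, as the selection implies. Among the 10 genes called higher without the block, MT1G had a larger log2-fold change (8.60, at a mean of 3.69 CPM), and the next below TMEM198 was RGS20 with 2.93.

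**Figure D2:**
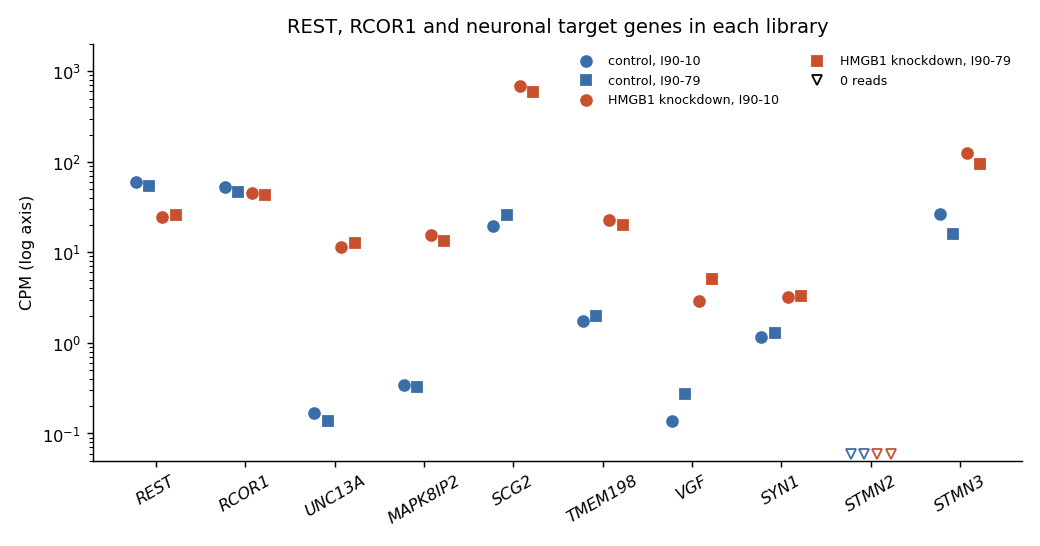
CPM (y axis, log scale) of the 10 genes in each of the 4 libraries, with control in blue, HMGB1 knockdown in red, I90-10 as circles and I90-79 as squares. REST lies lower after knockdown, RCOR1 has a log2-fold change of −0.15, 7 neuronal genes lie higher, and STMN2 (open triangles) has 0 reads in every library.

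The other 4 neuronal members were listed with earlier results of these data known, and 3 of them had higher levels in both knockdown libraries. VGF, a granin-like peptide precursor that neurons secrete, had 4 and 10 reads in control and 84 and 159 reads in knockdown libraries. These are 0.136 and 0.271 against 2.91 and 5.09 CPM, without overlap. The log2-fold change was 4.24 (standard error 0.51), which missed the threshold without the block (edgeR, adjusted p = 0.0168) and passed with it (0.000131). With 4 and 10 control reads, VGF passed the expression filter through the knockdown libraries, so these p-values are a description.

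STMN3, a stathmin that destabilises microtubules, was already well expressed in control cells. It had 26.6 and 15.8 CPM in control and 124 and 94.9 CPM in knockdown libraries, and in both groups I90-10 was the higher isolate. The change was 2.37 (standard error 0.29, with an adjusted p of 0.0171 in edgeR), and with the block 2.40 (standard error 0.12, adjusted p = 2.74e-05).

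SYN1, the synapsin that tethers synaptic vesicles, had 1.16 and 1.30 CPM in control and 3.19 and 3.33 CPM in knockdown libraries. Its increase was the smallest of the 7, with a log2 difference of 1.40 (standard error 0.27). The adjusted p was 0.0418 with edgeR and 0.00540 with the replicate block, which called it, but 0.0186 in DESeq2 with the same block and 0.0577 in RUVs and DESeq2, which did not. DESeq2 without the block called it (0.00697). STMN2, a stathmin of growing axons, had 0 reads in all 4 libraries, which allows a level of at most 0.104 CPM in any of them by counting error alone.

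Per length, the order of the members changed upon knockdown. In control libraries STMN3 (8.64 ± 3.11 RPKM, SD, n = 2), SCG2 (8.34 ± 1.74 RPKM), RCOR1 (7.95 ± 0.715 RPKM) and REST (7.29 ± 0.500 RPKM) did not differ beyond their spread. They were followed by TMEM198 (0.721 ± 0.0671 RPKM), SYN1 (0.384 ± 0.0320 RPKM), VGF (0.0754 ± 0.0354 RPKM), MAPK8IP2 (0.0545 ± 0.00171 RPKM) and UNC13A (0.0134 ± 0.00213 RPKM), of which VGF and MAPK8IP2 did not differ beyond their spread. In knockdown libraries SCG2 led with 235 ± 24.6 RPKM (SD, n = 2), before STMN3 with 44.7 ± 8.43 RPKM. TMEM198 (8.37 ± 0.736 RPKM) came next, followed by RCOR1 (7.16 ± 0.297 RPKM), and REST had 3.21 ± 0.0793 RPKM. MAPK8IP2 reached 2.36 ± 0.227 RPKM, while VGF (1.48 ± 0.571 RPKM), UNC13A (1.05 ± 0.0717 RPKM) and SYN1 (1.02 ± 0.0319 RPKM) did not differ beyond their spread.

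Among the relatives of UNC13A, MAPK8IP2, the stathmins, SYN1 and TMEM198 that share their family or name, none was called higher without the block. With the block only MAPK8IP3 was. UNC13B, the broadly expressed relative of UNC13A, had 51.4 and 47.9 CPM in control and 46.2 and 44.4 CPM in knockdown libraries, a log2-fold change of −0.13 (standard error 0.11). UNC13C had 0 reads, and UNC13D had 6 and 14 reads in control and 3 and 15 reads in knockdown libraries. Per length UNC13B (6.87 ± 0.198 RPKM, SD, n = 2) still stood above UNC13A after knockdown.

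Among the JNK scaffolds, MAPK8IP1 went the other way from MAPK8IP2, though 11.7% of the exonic bases of MAPK8IP1 overlap another gene. MAPK8IP1 had 15.8 and 18.1 CPM in control and 6.27 and 5.16 CPM in knockdown libraries. Its change of −1.57 on the log2 scale (standard error 0.19) was called lower with the block (adjusted p = 0.000401) and missed without it (0.0169, edgeR). MAPK8IP3 changed by 0.62 (standard error 0.11, adjusted p = 0.00198 with the block), while SPAG9 was not called, at 0.16. After knockdown MAPK8IP2 stood at 2.36 and MAPK8IP1 at 1.63 ± 0.225 RPKM (SD, n = 2), where before it had been 0.0545 against 4.85.

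STMN1, the stathmin of dividing cells, had a log2 value of 0.37 (standard error 0.13), with an adjusted p of 0.132 in edgeR, and STMN4 had 0 reads. SYN2 and SYN3, the other synapsins, had between 0 and 14 reads in any library and were not tested. TMEM198B had 152 and 269 reads in control and 199 and 156 reads in knockdown libraries, with 37.2% of its exonic bases shared with other genes.

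**Figure D3:**
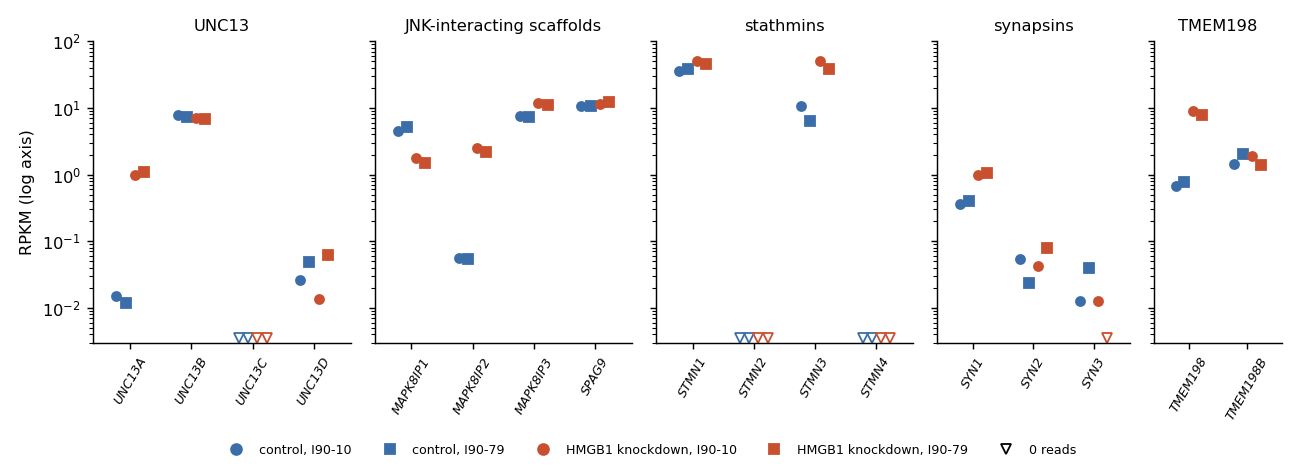
RPKM (y axis, log scale) of each member's relatives in the 4 libraries, with control in blue, HMGB1 knockdown in red, I90-10 as circles, I90-79 as squares and open triangles for 0 reads. UNC13A, MAPK8IP2, STMN3, SYN1 and TMEM198 rise above their control values, UNC13B has 6.87 RPKM after knockdown, and MAPK8IP1 falls to 1.63 RPKM.

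A wider list of 81 neuronal genes known or thought to be under REST was then examined, of which 80 were in the files and 1, NEFL, was not analysed here. The list was chosen with earlier results of these data known. Its counts and medians, given beside the backgrounds, are therefore a description and not independent of that choice. They comprise transmitter release, cytoskeleton, channels, receptors and granule genes, and the 8 neuronal members. Of the 80, 13 had 0 reads in every library and 22 more were too low to be tested. Without the block the genes called higher were the 4 that had been selected for it, and 0 were called lower. With the members left out, 38 genes were tested, of which 0 were called in either direction without the block and 25 reached 0.05 before adjustment, while DESeq2 called 18. Under the replicate block 22 of these 38 were called higher and 1, MAPK8IP1, lower, beside backgrounds of 6.68% and 7.84%, and with the members the count was 29 higher and 1 lower of 45.

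Low genes pass the expression filter through the group in which they are high, so the count was also taken over genes with at least 10 reads in both control libraries. With the members left out, 10 of the 23 such genes were called higher and 1 lower with the block, where of all 14711 such genes 6.64% were called higher. The median log2-fold change of the 38 tested genes outside the members was 1.36, against −0.01 for all genes tested. Of the 38, 28 lay higher in both isolates and 6 lower in both, where 5987 of all 15398 genes lay higher in both. The median and these counts include low genes that passed the filter through the knockdown libraries and describe the genes that passed.

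**Figure D4:**
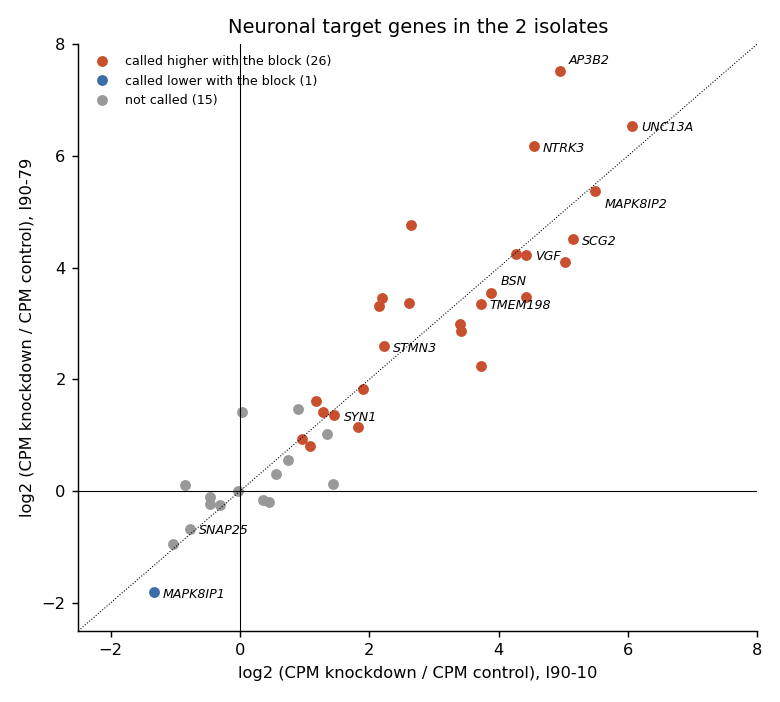
Log2 ratio of knockdown to control CPM in I90-10 (x axis) and I90-79 (y axis) for the 42 tested neuronal genes with reads in all 4 libraries, coloured by the call with the replicate block, with equality as a dotted line. The 26 genes called higher lie above 0 in both isolates and MAPK8IP1 lies below 0 in both.

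The genes of the list that are named from here on, apart from those nearest in profile, were chosen after their values were seen. Among them SYP, CPLX1, SCG3, CHGB and CHRNB2 passed the filter through the knockdown libraries, so their p-values and calls are a description. Several served vesicle release. SYP, a vesicle membrane protein, had 7 and 15 reads in control and 148 and 142 reads in knockdown libraries, a log2 difference of 3.87 (standard error 0.36) with an adjusted p of 0.0113 in edgeR and 0.000166 with the block. BSN, a scaffold of the release site, went from 0.477 and 0.733 to 7.06 and 8.58 CPM. CPLX1 and RAB3A, which regulate fusion and vesicle docking, had changes of 3.44 and 0.93, both called with the block. SNAP25, the fusion protein of the synapse, had 211 and 240 reads in control and 121 and 127 reads in knockdown libraries, and its change of −0.73 was not called (adjusted p = 0.0181 with the block).

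Granule genes included further increases. SCG3, another granin, had 0 reads in both control libraries and 33 and 30 reads in the knockdown libraries, which is at least 11.5-fold higher when each control library is set to a floor of 3 reads. CHGB went from 0.306 and 0.570 to 3.29 and 4.16 CPM (log2-fold change 3.05, adjusted p = 0.0193 with edgeR and 0.000360 with the block). PTPRN, a granule membrane protein, changed by 1.44. CHGA had 0 and 0 reads in control and 2 and 0 reads in knockdown libraries, and PCSK2 had 0 in all. Of 15 granule genes 10 were tested and with the block 5 were called higher, among them SCG2, which had been selected for it, and 2 lower, beside backgrounds of 6.68% and 7.84%. Of the 6 with at least 10 reads in both control libraries, 2 were called higher and 2 lower. The ones called lower were CADPS2, a priming factor of granules, at −2.64 (standard error 0.38, adjusted p = 0.0239 with edgeR and 0.000992 with the block), and the processing enzyme CPE at −1.11, whose values overlapped between groups (687 and 210 reads in control, 307 and 88 reads in knockdown).

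Channels and receptors were split. CHRNB2, a nicotinic receptor subunit, had 0 and 1 reads in control and 72 and 76 reads in knockdown libraries, a ratio of 163 with a 95% counting interval from 28.8 to 6483. SCN3B, a sodium channel subunit, had a log2-fold change of 3.16. The channel genes SCN3A, SCN2A, SCN8A and CACNA1A had 1.05, −1.02, −0.48 and −0.29 and were not called with or without the block. GRIA2, GLRA1 and GLRA3 had 0 reads throughout. Of the neurofilament-type genes, INA had a change of 1.35 and NEFM of 3.06, though 39.0% of the exonic bases of NEFM overlap another gene, and NEFH had −0.34 and was not called. BDNF, a growth factor of neurons, changed by 0.94 from a higher base of 92.3 and 116 CPM.

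The general fusion machinery, 19 SNARE and associated genes, gave 3 calls up and 1 down with the block among 19 tested, beside backgrounds of 6.68% and 7.84%. STX3 and STX1A, syntaxins of the cell membrane, had log2-fold changes of 1.25 and 0.85, and SYT7, a calcium sensor of slow release, 2.92. SNAP23, the broadly expressed counterpart of SNAP25, had −1.70 (standard error 0.18, adjusted p = 0.0142 with edgeR and 5.2e-05 with the block). Of the exonic bases of STX1A and SNAP23, 17.9% and 18.0% overlap other genes. The 3′ untranslated region of SNAP23 holds 2 copies of GCAGTT, and so do those of STX3 and SYT7, which were higher.

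The closeness of an RE1 match was set beside the change for all genes tested. Within 5 kb of the start, 63 genes had a match with at most 2 mismatches, and with the block 24 of these (38.1%) were called higher and 4 (6.35%) lower. The share called higher was 13.9% of 115 genes at 3 mismatches, 7.27% of 798 genes at 4, 6.16% at 5 and 6.56% of 10478 genes at 6 or more. The share called lower lay between 5.22% and 8.11% in the 5 classes. The median log2-fold change went from 0.36 at up to 2 mismatches to 0.13 at 3 and 0.02 at 4, and it was −0.01 in the other 2 classes. Without the genes of the neuronal list the share called higher was 28.0% of 50 genes at up to 2 mismatches and 12.8% of 109 genes at 3. Among genes with at least 10 reads in both control libraries, list included, 15 of 50 were called higher at up to 2 mismatches and 6.60% at 6 or more. The list was chosen with earlier results known. The shares without it still hold genes that passed the filter through the knockdown libraries, such as KCNJ6. No share leaves out both, so all of them are a description.

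**Figure D5:**
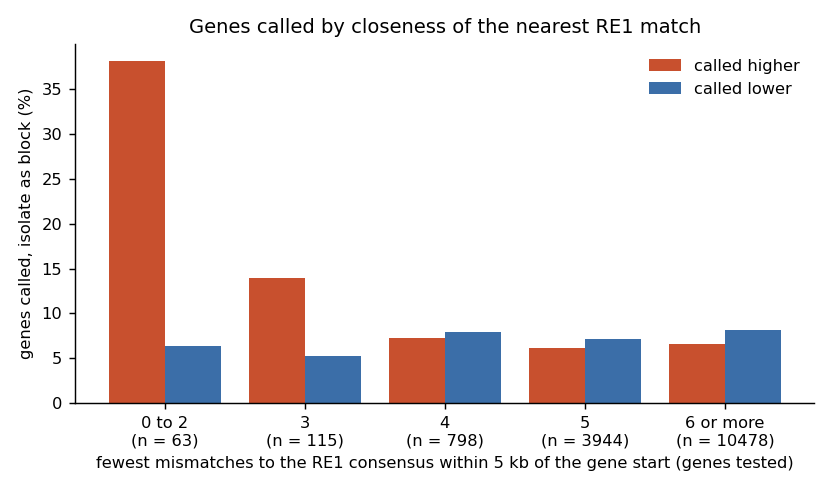
Share of genes called higher (red) or lower (blue) in the fit with the replicate block (y axis, percent), by the fewest mismatches to RE1 within 5 kb of the gene start (x axis, number of genes tested in brackets). The share called higher is 38.1% at up to 2 mismatches and 6.56% at 6 or more, while the share called lower stays between 5.22% and 8.11%. The neuronal list and genes that passed the filter through the knockdown libraries are included.

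Among those 50 genes outside the list, 14 were called higher with the block. The 3 with the smallest p were CLDN12, a tight junction protein, with 502 and 724 reads in control and 1440 and 1954 reads in knockdown libraries, TULP3, with 564 and 860 against 1509 and 1482 reads, and the metalloproteinase MMP24, with 75 and 60 against 223 and 253 reads. Others, such as ECSIT and TRMT61A, are broadly expressed genes, and some were channels or receptors, such as HCN2, with 73 and 54 against 219 and 236 reads, and KCNJ6, with 2 and 5 against 19 and 60 reads. Among the 3 called lower was the potassium channel KCNK12, from 26 and 49 to 4 and 7 reads. The glutamate receptor GRIK2 and the channel partner KCNIP2 had log2-fold changes of −1.19 and −1.16 and were not called. All of these were named after their values were seen.

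Within the neuronal list, 27 of the 45 tested genes had a match with at most 4 mismatches, where 6.34% of all genes tested did. Of these 27, 18 were called higher and 1 lower with the block. Of the 18 tested genes without such a match, 11 were called higher and 0 lower, with MAPK8IP2, SCG2 and SCG3 among them. The backgrounds with the block were 6.68% higher and 7.84% lower. Both counts of genes called higher include members selected as increases and genes that passed the filter through the knockdown libraries, so they are a description. A close match was also found beside genes that had few or no reads, such as CHGA, GRIN1 and STMN2, and beside MAPK8IP1, which fell.

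The 5 tested genes whose profile over the 4 libraries was nearest to the mean profile of UNC13A, MAPK8IP2, SCG2 and TMEM198 (Euclidean distance between centred log2 CPM) were CHRNB2 at 0.390, SCG3 at 0.701, NTRK3 at 0.938, AP3B2 at 0.942 and RUNDC3A at 1.05. NTRK3, a neurotrophin receptor, had 3 and 1 reads in control and 69 and 61 reads in knockdown libraries. AP3B2, the neuronal subunit of an adaptor complex, had 4 and 1 against 121 and 155 reads. RUNDC3A had 2 and 4 against 64 and 58 reads. Each of the 5 had 0 to 4 reads in either control library and passed the filter through the knockdown libraries. All 5 are on the neuronal list, which was itself chosen with earlier results of these data known, so this is a description only. With 2 groups such a likeness mostly reflects the size of the change.

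The libraries read as fibroblast. The 14 fibroblast markers summed to between 27095 and 51648 CPM in every library, with COL1A1, COL1A2, COL3A1, COL6A1 and FN1 the most abundant, and I90-10 was the higher isolate in both groups. With the block THY1, PDGFRB and FN1 were called lower and LUM higher. Of 15 neuron markers 7 had 0 reads in every library (ELAVL4, NEUROD1, NEUROD2, SLC17A6, SLC32A1, GAD2 and DCX), 4 were tested and 0 were called by edgeR with or without the block or by DESeq2, with 1 at 0.05 before adjustment. Their sum was 31.5 and 24.6 CPM in control and 30.3 and 18.2 CPM in knockdown libraries.

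Of 9 neuroendocrine markers, 3 had 0 reads in all libraries, INSM1 and GRP among them. The sum of the 9 was 0.919 and 1.30 CPM in control and 8.93 and 9.51 CPM in knockdown libraries, in which SYP and CHGB, both on the neuronal list, made up most. The 7 epithelial markers summed to 64.0 and 68.0 CPM in control and 82.0 and 99.1 CPM in knockdown libraries, with CDH1 at 1 read or none. KRT18, for which 24.7% of the exonic bases overlap other genes, was called higher with the block, while KRT8 and KRT19 had log2-fold changes of −0.60 and −0.65 and were not called. The 4 endothelial markers measured gave between 1.60 and 4.40 CPM, with VWF called higher with the block and CDH5 at 0, and the 5 leukocyte markers gave at most 0.693 CPM. In bulk RNA a change in the number of cells that express a gene and a change in its RNA per cell cannot be told apart.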

How the data were processed

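IMR90 libraries were made from poly(A) RNA with the TruSeq kit. The authors aligned the read pairs to hg19 with STAR and obtained unique counts for each gene from featureCounts, per the methods and labels. The deposited values are raw counts, 1 file for each of 4 libraries and 63677 genes. Tool versions and the strand setting are not given in the sources used here, and gene counts do not separate isoforms.

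Counts were tested with edgeR 4.0.16 (R 4.3.3, limma 3.58.1) after filterByExpr, with TMM factors, the quasi-likelihood test and Benjamini-Hochberg adjustment over 15398 genes. The fitting scripts were tested on simulated data. CPM use TMM-scaled library sizes, and RPKM further divides by the exonic length in the files. Each isolate is in both groups, so the replicates pair the libraries. The difference between replicates correlated by 0.46 between control and knockdown across genes. With 2 libraries a group, the smallest p of an exact two-sided permutation test is 0.333. Nothing says how the cultures of an isolate were separated, so p-values measure the spread between these libraries. Intervals and floors cover counting error only.

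The members and gene lists were chosen with earlier results of these data known. Named genes are the members, their relatives, REST partners, the genes of each list called without the block or with the 3 smallest p with it, and the 5 nearest profiles. Others were named after their values were seen, as stated. RE1 and the word GCAGTT, taken from earlier work on these data, were searched in the GRCh37 (hg19) genome with GENCODE annotation lifted to it. Chromosome 8 sequence is not shown, and a few genes of the lists are counted but not reported here by name. Alternatives were DESeq2 1.42.0 with and without the block, RUVs with 1 factor, other scaling factors, other filters, an adjusted p below 0.05 and leaving out each library.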

Additional observations from a re-analysis of the deposited data

Results flagged for a closer look

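The genes compared were the members and listed relatives that passed the expression filter, with RCOR3, KDM1A, HDAC1, HDAC2 and SIN3A. In 3 of them the 2 isolates moved in opposite directions upon knockdown, and the difference was not tested. HDAC1 had a log2 ratio of knockdown to control of 0.09 in I90-10 and −0.07 in I90-79, a difference of 0.16. TMEM198B had 0.41 and −0.55, a difference of 0.96. UNC13D, at 3 to 15 reads a library, had −0.98 and 0.34, a difference of −1.31. SYN2, which did not pass the filter, had −0.34 in I90-10 and 1.72 in I90-79. With 2 libraries in a group, samples that stand apart within a group were not looked for.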

How the results depend on the processing

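REST kept its direction under all 13 alternatives and was not called without the block at a log2-fold change of −1.18. It was called with DESeq2 (−1.18), RUVs and DESeq2 (−1.15), no low-count filter (−1.17), the isolate as a replicate block in edgeR (−1.18) or DESeq2 (−1.18), at an adjusted p below 0.05 (−1.18), and without control replicate 1 or control replicate 2. Leaving out 1 library gave −1.25 to −1.11. RCOR1 was called under none, and the 4 members chosen on the comparison moved by less than the spread between replicates. UNC13A and VGF gave no value at 10 reads in every library, nor did STMN2 anywhere. The neuronal genes called higher numbered 4, against 24 with DESeq2, 19 with RUVs, 29 without the filter, 29 with the replicate block (DESeq2 23), 28 at an adjusted p below 0.05, and 0 to 19 with 1 library left out (15 without control replicate 1, 19 without control replicate 2 and 0 without either knockdown library). Those called lower numbered 0, against 1 with DESeq2, RUVs, no filter, either block fit and an adjusted p below 0.05, and 0 to 1 with 1 library left out. Corepressor genes called higher numbered 0, against 2 with DESeq2, 1 with RUVs, 2 without the filter, 2 with either block fit and 2 at an adjusted p below 0.05. Those called lower numbered 0, against 4 under each of these and 0 to 2 with 1 library left out. RE1 matches were found for 5 of the 10 members, 3 with one mismatch fewer. VGF, SYN1 and STMN3 kept their direction throughout. With all libraries, SYN1 was called by DESeq2, by edgeR with the replicate block, without the low-count filter and at an adjusted p below 0.05. It was not called by DESeq2 with the replicate block, by RUVs, with other scaling factors or at 10 reads in every library. A library left alone in its group is taken to vary like the other group, which leaves fewer degrees of freedom. The cause of the other differences was not tested. Genes at a few reads in control are limited by counting error.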
